A study of Mus musculus with 6 samples.

Results

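The circRNAs described here were those detected on day 0 (D0) and on day 4 (D4) of white adipogenesis but not on day 8 (D8), where detected means 2 or more back-splice reads in both libraries of a stage. They numbered 243 of the 3662 circRNAs in the table. The cells came from the stromal vascular fraction (SVF) of inguinal white fat of female C57BL/6J mice aged 6 weeks. At each of 3 stages, 2 libraries were made. D0 cells were proliferating and had not been induced. D4 cells had spent 4 days in induction medium with 10% serum, insulin, dexamethasone and IBMX, and D8 cells had then spent 4 further days in medium with 200 nM insulin and 10 nM T3. All libraries were depleted of rRNA and digested with RNase R, which removes linear RNA. The SVF is a mixture of cells and not a clonal line, so fewer cells of a type and less circRNA per cell cannot be told apart in these bulk libraries.

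A circRNA forms when a splice donor is joined to an acceptor that lies upstream of it, which leaves a closed loop without a free end or a poly(A) tail. Such loops resist exonucleases and usually outlive their linear counterparts. A back-splice junction is read only where a sequencing read crosses it, and a circRNA of low abundance is therefore easily missed in a library. In adipogenesis, committed preadipocytes leave the cell cycle, take up lipid and replace fibroblast genes by those of the fat cell.

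The members were chosen by their D8 reads, so their low D8 values describe the choice and are not a finding. The working name for these circRNAs, lost by day 8, did not hold for most of them. On D8, 48 of the 243 (19.8%, exact binomial 95% interval 14.9 to 25.3%) had no reads in either library. A further 104 (42.8%) had reads in replicate 1 only and 91 (37.4%) in replicate 2 only, so that 195 (80.2%) were still read in a D8 library. The table holds no value of 1, so a 0 may stand for a single read, and no fold change against a 0 is given. The members are therefore called circRNAs of D0 and D4 below.

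The back-splice junctions of 8 members show what was counted. They belong to some of the most abundant members and to members without D8 reads, all with both ends in coding exons. Each line holds the last 15 bases before the junction in lower case and the first 15 after it in capitals, on the strand of the gene in mm9. The first 4 are abundant members still read in a D8 library.

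Samd4 circ_0000529: ccggcgcaagcacgaGAATCATTAACCAAT
Fam120a circ_0000462: caccacattacttagGTCCGAGCCCACCAG
Bub1b circ_0001058: tgctccacccttcagAAGATGCTATTCAGT
Bfar circ_0000663: gagaagtgagctgaaGCTGTCAACCCGGGT

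The other 4 are junctions without a read in either D8 library.

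Pdlim5, not in circBase: tacgaagaaggcaaaAGCTTCAGCTGCAGC
Slc7a11 circ_0010676: agacaaccctgaaaaGAGCCCTGTCCTATG
Glis3 circ_0007671: ctgaactctattcagTTCGAAGGCTGCAAG
Nbas circ_0000360: cgtcaagatgagcagTTCCAAAAGACCCAA

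In all 8, the intron bases just outside the ends were AG before the circle and GT after it, as at ordinary splice sites. This held for 242 of the 243 members (99.6%) and for 99.6% of all circRNAs of the table. It is thus no trait of the members, and how far the calling of circRNAs set this share was not tested.

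Library depth sets how these counts can be read. The 2 libraries held 30110 and 32310 back-splice reads at D0, 43069 and 41658 at D4, and 45371 and 50672 at D8. Levels are given as circCPM, the back-splice reads of a circRNA per 1000000 back-splice reads of its library, and 1 read was worth 33.2 and 31.0 circCPM on D0 and 22.0 and 19.7 on D8. The members held 7.28% and 7.40% of the reads at D0, 5.74% and 6.24% at D4, and 2.40% and 2.43% at D8. Exact binomial 95% intervals, which cover counting error only, were 6.99 to 7.58% for the first D0 library and 2.26 to 2.55% for the first D8 library. Both D8 libraries held more reads than every D0 and D4 library.

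The members were mostly low. The sum of a member over the 4 D0 and D4 libraries ranged from 10 to 373 reads, with a median of 27 and quartiles of 20 and 41. The 48 without D8 reads had a median of 22 reads, against 30.5 for those read in D8 replicate 1 only and 29 for those read in replicate 2 only. At the threshold itself, 73 members had exactly 2 reads in at least 1 D0 or D4 library and 170 had 3 or more in all 4. Just outside the rule, 41 circRNAs detected at all 3 stages had 2 reads in their lower D8 library.

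The most abundant member was circ_0000529 of Samd4, which encodes the RNA-binding translational repressor Smaug. It is exon 2 of an annotated transcript of the gene (chr14:47635952-47636470, plus strand, 519 bases). It had 184 and 123 reads at D0, 33 and 33 at D4, and 82 and 0 at D8. D8 replicate 1 thus lay above both D4 libraries at 1807 circCPM, while D8 replicate 2 had none. Circ_0001663 of Mcph1 (chr8:18668946-18689059, plus strand, exons 9 to 11), whose protein microcephalin acts in chromosome condensation and the DNA damage response, had 86 and 86 reads at D0, 61 and 69 at D4, and 0 and 75 at D8. In both circRNAs the D8 library with reads lay above the lowest of the D0 and D4 libraries in circCPM, and the other held none.

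Most of the other abundant members were likewise read in 1 D8 library. Circ_0000462 of Fam120a (chr13:49027666-49029447, minus strand, exons 4 and 5), an RNA-binding protein gene, had 32 and 38 reads at D0, 58 and 73 at D4, and 73 and 0 at D8. Circ_0001058 of Bub1b (chr2:118457495-118461013, plus strand, exons 4 to 6), which encodes the spindle checkpoint kinase BubR1, had 50 and 54, then 34 and 35, then 0 and 20. Circ_0000663 of Bfar (chr16:13697426-13699168, plus strand, exons 4 and 5), a membrane protein that restrains cell death, had 45 and 38, then 29 and 22, then 0 and 81. The D8 library with reads lay above every earlier library in circCPM for Bfar, within their range for Fam120a and below all of them for Bub1b.

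Of the 12 members with the highest mean circCPM on D0 and D4, only the Pdlim5 circRNA had no D8 reads. It runs over exons 4 to 9 (chr3:141966907-141977412, minus strand), is not in circBase, and comes from a gene for a scaffold protein of the actin cytoskeleton. Its reads were 44 and 18 at D0, 31 and 37 at D4, and 0 and 0 at D8. Others of these 12 were circRNAs of Fam108b, Etv6, Ttc28, Rftn1 and 1700081L11Rik, now called Kansl1, with 17 to 47 reads in the D8 library that held any. A circRNA of Etv6 (chr6:134065238-134087435, plus strand), a transcriptional repressor of the ETS family, had 26 and 45 reads at D0, 30 and 35 at D4, and 0 and 47 at D8. At least 1 of its ends lay outside the annotated exons of the gene.

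**Figure D1:**
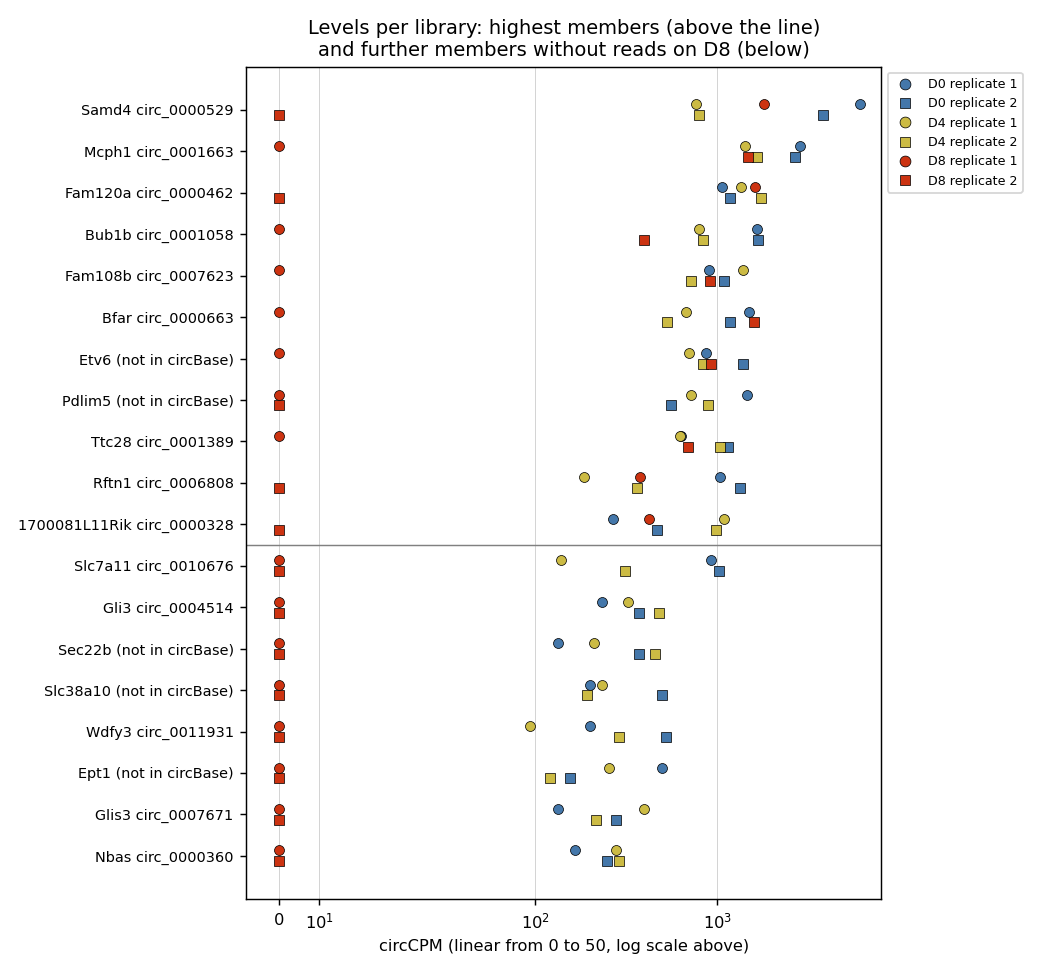
circCPM of 11 of the 12 most abundant members (above the line) and of 8 further members without D8 reads (below the line) in each of the 6 libraries. The horizontal axis is linear from 0 to 50 circCPM and logarithmic above, circles are replicate 1 and squares replicate 2. For 10 of the 11 upper circRNAs 1 D8 point lies at 0 and the other among or near the D0 and D4 points.

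The D8 library that held reads is described next, and it was picked for holding them. Among the 195 members with reads in a single D8 library, these were 2 to 82 reads with a median of 8. They were 15 or more for 44 members, 30 or more for 15, and exactly 2 for 10. The D8 circCPM lay within the range of the 4 D0 and D4 libraries for 112 members, above all of them for 29 and below all of them for 54. Its median was 158 circCPM, and the median of the members' mean on D0 and D4 was 205 circCPM. With the 0 of the other library included, the mean of both D8 libraries was below the mean of D0 and D4 for 187 of the 195 members and above it for 8, with a median of 78.9 circCPM. The highest levels in a single D8 library were those of Samd4, Fam120a and Bfar, of Mcph1 at 1480 circCPM, of circ_0009688 of Dnajc5, the cysteine string protein, at 1389 circCPM, and of circ_0000421 of Mark3, a polarity kinase, at 1204 circCPM. Circ_0009688 had 13 and 23 reads at D0, 18 and 11 at D4, and 63 and 0 at D8, and circ_0000421 had 21 and 15, then 38 and 25, then 0 and 61. In both, D8 held the highest and the lowest value of the series.

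**Figure D2:**
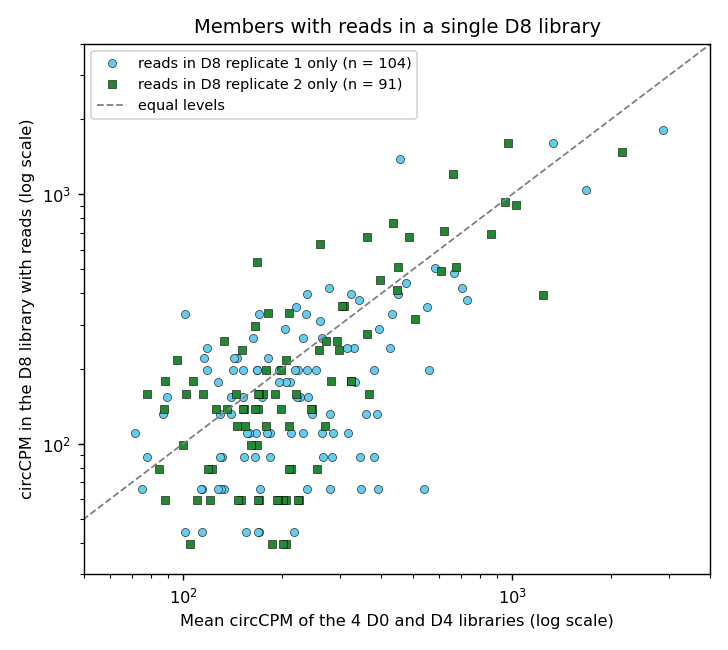
Level of the 195 members with reads in 1 D8 library, as circCPM in that library (vertical, log scale) against mean circCPM of the 4 D0 and D4 libraries (horizontal, log scale). Circles are members read in D8 replicate 1 only, squares those read in replicate 2 only, and the dashed line marks equal levels. Points of both kinds lie on either side of the line.

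The 48 members without a D8 read were led by Pdlim5. Circ_0010676 of Slc7a11 (chr3:50221910-50242837, minus strand, exons 2 to 6, 514 bases when spliced), which encodes the cystine and glutamate exchanger that supplies glutathione synthesis, had 28 and 33 reads at D0 and 6 and 13 at D4. It was already lower in both D4 libraries than in both D0 libraries. Circ_0004514 of Gli3 (chr13:15569833-15640475, plus strand, exons 2 and 3), a transcription factor of the hedgehog pathway, had 7 and 12 reads at D0 and 14 and 20 at D4, and its levels at these stages overlapped in circCPM.

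The next members without D8 reads were lower. Circ_0007671 of Glis3 (chr19:28391744-28432442, minus strand, exons 5 to 7), a Krüppel-like zinc finger factor, had 4 and 9 reads at D0 and 17 and 9 at D4. Circ_0000360 of Nbas (chr12:13291989-13317110, plus strand, exons 7 to 12), which acts in transport from the Golgi to the endoplasmic reticulum (ER), had 5 and 8 on D0 and 12 and 12 on D4. CircRNAs of Sec22b (4, 12, 9 and 19 reads), a vesicle fusion protein, of the amino acid transporter gene Slc38a10 (6, 16, 10 and 8), of the autophagy gene Wdfy3 (6, 17, 4 and 12) and of the phospholipid synthesis gene Ept1 (15, 5, 11 and 5) were also among the 10 highest. Here the 4 values are those of D0 replicates 1 and 2 and of D4 replicates 1 and 2, and D0 and D4 overlapped in all 4 circRNAs and in Glis3, while both D4 values of Nbas were above its D0 values.

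Reads in a single library were also the usual case when D4 or D0 was the missing stage. Of 280 circRNAs detected on D0 and D8 but not on D4, 77 (27.5%, interval 22.4 to 33.1%) had no D4 reads, 123 had reads in D4 replicate 1 only and 80 in replicate 2 only. Of 412 detected on D4 and D8 but not on D0, 120 (29.1%, interval 24.8 to 33.8%) had no D0 reads, 139 had reads in replicate 1 only and 153 in replicate 2 only. The D8 reads of the members chose them, as the D4 and D0 reads chose these sets, so the shares stand side by side without a test. The single library held a median of 8 reads for the members and 5 for each of the other sets. These are raw reads of unlike libraries, since D0 held 30110 and 32310 back-splice reads, D4 43069 and 41658 and D8 45371 and 50672. Depth was not equalised for these medians or for the shares without reads.

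**Figure D3:**
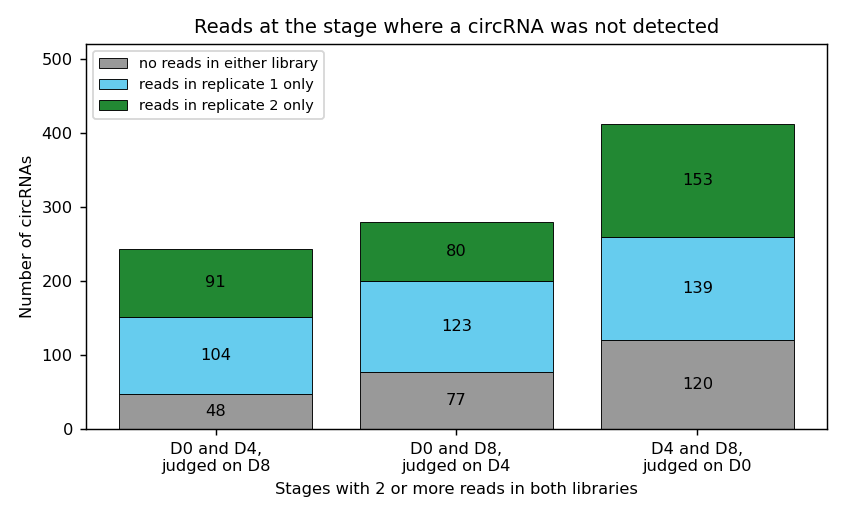
Number of circRNAs (vertical) that were detected at 2 stages but not at the other, split by their reads at the missing stage. From the bottom, each bar counts circRNAs with no reads in either library, in replicate 1 only and in replicate 2 only, as 48, 104 and 91 for the 243 circRNAs of D0 and D4. In every bar, circRNAs with reads in 1 library outnumber those with none.

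How often a circRNA of D0 and D4 missed a D8 library went with its level there. Of the 1255 circRNAs detected on D0 and D4, 243 (19.4%) were members, with 139 at 0 in D8 replicate 1, 152 at 0 in replicate 2 and 48 of them in both. The share was 50.5% (53 of 105) for circRNAs with 8 to 19 reads in the 4 D0 and D4 libraries, 31.0% (122 of 393) with 20 to 39 reads, 11.4% (48 of 421) with 40 to 79, 8.11% (15 of 185) with 80 to 159, and 3.31% (5 of 151) with 160 or more. Circles without any D8 read made up 16.2% of the lowest class and 6.36% of the next, and then 4, 2 and 0 circRNAs of the upper 3. The 5 members with 160 or more reads included the circRNAs of Samd4, Mcph1, Fam120a and Bub1b described above, and all 5 had reads in a D8 library. The counts in the classes are a description, since the D8 reads that set membership are themselves lower for low circRNAs.

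**Figure D4:**
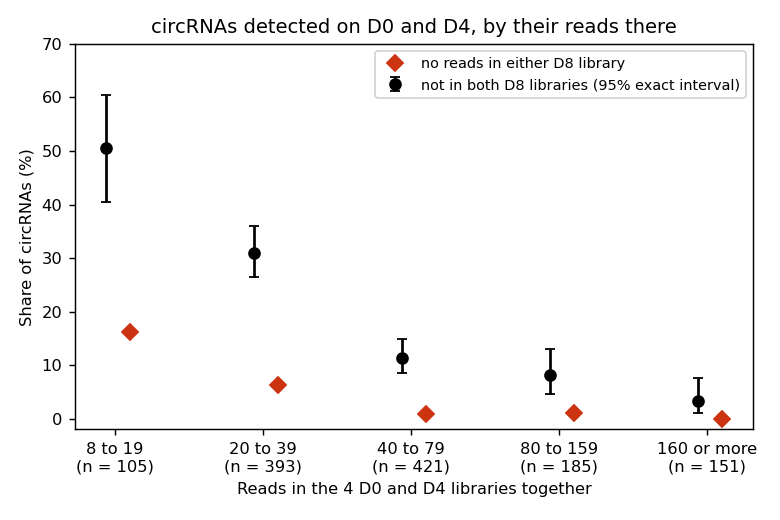
Share of the 1255 circRNAs detected on D0 and D4 (vertical, percent) that were not detected in both D8 libraries (black circles, exact 95% binomial interval) or had no reads in either (red diamonds), by their reads in the 4 D0 and D4 libraries together (horizontal). The black share falls from 50.5% in the class of 8 to 19 reads to 3.31% in the class of 160 or more.

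The difference between D4 and D0 was fitted with edgeR's quasi-likelihood test on all 1407 circRNAs that passed the filter on low counts. The rule asks for 2 or more reads in every D0 and D4 library, which limits how far a member can differ between these stages, while the circRNAs tested include some at 0 on D0 or D4. The shares below are therefore partly set by the choice of members and are no sign of stability. Of the members, 109 were tested and 134 were too low. In this test 0 of the 109 changed at an adjusted p under 0.05, where 46 of all circRNAs tested (3.27%) did. DESeq2 also called 0 of the 109, where it called 71 of all circRNAs. At an unadjusted p under 0.05 there was 1 member (0.917%), against 19.8% of all tested. The median log2 difference, D4 minus D0, was -0.18 for the members and 0.00 for all circRNAs. The members' D8 values, 0 in 1 library and not in the other, enter the spread that this fit estimates, and a fit of the D0 and D4 libraries alone called 2 of 79 members (2.53%), where 8.68% of all circRNAs in that fit were called, with 15 members (19.0%) at an unadjusted p under 0.05 against 24.2%.

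The 2 circRNAs called without D8 were those of Samd4 and Sdk1. For circ_0000529 of Samd4, the log2 difference of D4 from D0 was -2.63 ± 0.35 (SE) with an edgeR adjusted p of 0.0328, against -2.60 ± 1.20 and 0.291 in the fit of all 6 libraries. Circ_0012256 of Sdk1 (chr5:142058247-142089194, plus strand, exons 2 to 4), a cell adhesion gene, had 5 and 4 reads at D0, 43 and 50 at D4, and 0 and 36 at D8. Its log2 difference was 2.93 ± 0.50 with an edgeR adjusted p of 0.0369, against 2.97 ± 1.28 and 0.255. The call of both also appeared when either D8 library was left out, with edgeR adjusted p of 0.00935 and 0.00758 for Samd4 and 0.0196 and 0.0227 for Sdk1. Circ_0010676 of Slc7a11, without D8 reads, had the lowest adjusted p of the members in the fit of all libraries, 0.133, with a log2 difference of -2.04 ± 0.63.

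Without a test, D0 lay above D4 in circCPM in both libraries for 73 members (30.0%), where 28.0% of all circRNAs detected on D0 and D4 did. D4 lay above D0 for 28 members (11.5%), where 21.1% of all did. The stages overlapped for the other 142 (58.4%), against 50.8% of all. The members with D4 above D0 included, besides Sdk1, the Kansl1 circRNA circ_0000328 (8 and 15 reads at D0, 47 and 41 at D4, 19 and 0 at D8), whose protein is the scaffold of a histone acetyltransferase complex, and circ_0001852 of Stt3b (5 and 8, then 32 and 31, then 20 and 0), a catalytic subunit of oligosaccharyltransferase.

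The host genes were then grouped by function. The lists were written with the names of the members known, so their shares are not set against the 19.4% of all circRNAs of D0 and D4, and in no list did a member pass the D4 against D0 test with all libraries. The cell cycle and mitosis list held 9 members among its 22 circRNAs detected on D0 and D4, and all 9 had reads in 1 D8 library. Besides Mcph1 and Bub1b circ_0001058, these included circ_0009211 of Bub1b with 12 and 30 reads at D0, 16 and 19 at D4, and 3 and 0 at D8. Circ_0009218 of Casc5, the kinetochore scaffold now called Knl1, had 16 and 14, then 26 and 19, then 0 and 16. In circCPM the Casc5 value in D8 replicate 2 lay below all of its D0 and D4 values, which overlapped.

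DNA replication and repair genes gave 4 members of 10, and 2 had no D8 reads. These were the circRNAs of Fancc, of the Fanconi anaemia complex, with 5, 3, 6 and 7 reads in the D0 and D4 libraries, and of the checkpoint gene Topbp1, with 4, 6, 2 and 5. Those of Ddb1 (12, 10, 2 and 8) and Smchd1 (8, 6, 11 and 3) had 18 and 9 reads in D8 replicate 1. All 4 were low circRNAs, with at most 12 reads in a D0 or D4 library.

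Chromatin regulators held 21 members of 64 from 14 genes, of which 2 had no D8 reads. Circ_0006811 of Arid1b, a subunit of the SWI/SNF remodelling complex, had 16 and 14 reads at D0, 33 and 40 at D4, and 0 and 26 at D8. Several members came from the same gene here. Rere, a nuclear receptor corepressor, gave circ_0001299 with 11, 10, 35, 13, 18 and 0 reads in the 6 libraries in stage order, circ_0001305 with 12, 6, 26, 23, 0 and 39, and a further circRNA with 2, 6, 17, 6, 0 and 7. In D8 replicate 1 the first was read and the other 2 were not, and in replicate 2 the reverse held.

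Mllt10, which encodes a cofactor of the histone methyltransferase Dot1l, gave 4 members, the most of any gene. Circ_0000982 and circ_0000980 had 11 and 15 reads in D8 replicate 1 and none in replicate 2, circ_0000984 had 9 in replicate 2 and none in replicate 1, and a circRNA that is not in circBase had none in either. Circ_0000982 and circ_0000984 begin at the same base, chr2:18023085, and end at different exons. Circ_0000980 and the circRNA outside circBase likewise end at the same base, 18031518. Zranb1, a deubiquitinase gene, gave 3 members with 2 to 8 reads in the D0 and D4 libraries and 0 to 4 on D8.

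Transcription factors gave 13 members of 54, with 3 lacking D8 reads. Besides Etv6, Gli3 and Glis3, a circRNA of Nr2f2, the orphan receptor COUP-TFII, had 7 and 3 reads at D0, 20 and 33 at D4, and 0 and 23 at D8. The list of TGF-beta, BMP, hedgehog, Wnt and Hippo signalling held 8 members of 36, with 2 lacking D8 reads, the Gli3 circRNA and circ_0011654 of the TGF-beta receptor gene Tgfbr1 (7, 3, 14 and 3 reads on D0 and D4). CircRNAs of Itch, a ubiquitin ligase, of Smad4, the common mediator of TGF-beta and BMP signals, and of the Wnt coreceptor gene Lrp6 had 14, 18 and 3 reads in D8 replicate 2 and none in replicate 1.

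Adhesion, matrix and actin genes gave 9 members of 46, of which Pdlim5 alone had no D8 reads. Circ_0006808 of Rftn1, a lipid raft protein gene (chr17:50176266-50194952, minus strand, exons 3 to 5), had 31 and 43 reads at D0, 8 and 15 at D4, and 17 and 0 at D8. Its D0 values were above all others. Circ_0006764 of Cd2ap, an actin adaptor gene, had 19 and 22, then 10 and 10, then 0 and 21, and circ_0009294 of Fbn1, the microfibril gene fibrillin-1, had 6 and 21, then 11 and 8, then 0 and 9.

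Genes of ER protein folding, of glycosylation and of secretion gave 17 members of 36 from 15 genes, of which 3 lacked D8 reads. Besides Bfar, Stt3b and Dnajc5, circ_0016141 of Alg13, an enzyme of N-glycan assembly, had 16 and 26 reads at D0, 22 and 34 at D4, and 22 and 0 at D8. Ubiquitin ligase and turnover genes gave 13 of 49, with 1 lacking D8 reads. Among them circ_0001046 of the autophagy regulator gene Ambra1 had 17 and 21, then 37 and 15, then 0 and 25. Most members of both lists were read in a D8 library, as were 80.2% of all members.

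RNA processing, export and translation gave 19 members of 65 from 19 genes, with 3 lacking D8 reads. After Samd4 the highest were circ_0001248 of Eri3 (11 and 6, then 40 and 30, then 16 and 0 reads), circ_0000500 of Paip1, a partner of the poly(A)-binding protein (13 and 17, then 14 and 12, then 13 and 0), and a circRNA of Mrps18b, a mitochondrial ribosome subunit gene (12 and 14, then 11 and 15, then 0 and 34). The level of Paip1 was 287 to 526 circCPM over the 5 libraries that read it. Lipid and energy metabolism gave 7 members of 29, and 4 of the 7 had no D8 reads, which were the circRNAs of Slc7a11, of the mTORC1 subunit gene Rptor (3, 3, 17 and 3) and the pair from the kinase gene Pdpk1 (2, 7, 6 and 8, and 4, 2, 5 and 2). The circRNA of the amino acid transporter gene Slc7a8 (2, 2, 4 and 19) had 2 reads in a single D8 library.

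Defining genes of the fat cell could give no member, since their circRNAs had no reads on D0. Of 9 adipocyte markers, Lpl and Pparg had circRNAs, 6 in all, and their summed level was 0 and 0 circCPM at D0, 302 and 432 at D4, and 595 and 908 at D8. Of 10 preadipocyte or fibroblast markers, Fbn1 and Pdgfra had circRNAs, 3 in all with the Fbn1 member among them, and these summed to 598 and 959 circCPM at D0, 325 and 192 at D4, and 287 and 434 at D8. No circRNA came from the 5 endothelial, 5 pericyte or smooth muscle and 5 immune markers, so the table gives no value for those cells. The part of these shifts in the members' values was not tested.

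The host genes of the members were examined for other circRNAs. The members came from 222 genes, of which 205 gave 1 member and 17 more than 1. Another circRNA was in the table for 133 of the genes, and 117 (52.7%) had another one detected on D8, a share that has no matching value over all host genes here. Among the 47 hosts of members without D8 reads, 21 (44.7%) did. A splice site was also often shared, since 120 members (49.4%) had an end in common with a circRNA outside the members and 105 (43.2%) with one detected on D8. With any circRNA of the table an end was shared by 51.4% of members, 57.3% of circRNAs of all 3 stages and 47.2% of all circRNAs.

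To ask whether the other circRNAs of these genes changed, their reads were summed per gene without the members and tested with edgeR. Of the 222 hosts, 107 passed the filter. D8 differed from D0 in 7 of them (6.54%), where 10.9% of all 1032 genes tested did, with 2 higher on D8 (6.78% of all genes) and 5 lower (4.07%). D8 differed from D4 in 2 (1.87%), where 2.91% of all genes differed. Both were lower on D8 (1.36% of all genes) and 0 were higher (1.55%). At an unadjusted p under 0.05 the hosts numbered 15 (14.0%) against D0, where 25.0% of all genes did, and 19 (17.8%) against D4, where 17.4% did. The median log2 difference of the hosts was -0.20 from D0 and -0.32 from D4, against 0.04 and 0.02 for all genes. Leaving members out of the sums also fixed which circRNAs of a host remained, so these shares and medians are descriptions.

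The lowest adjusted p among the hosts was that of Cacna1c, which encodes the pore of an L-type calcium channel. Its other circRNAs summed to 304 and 410 reads at D0, 178 and 146 at D4, and 129 and 157 at D8, and were lower on D8 than on D0, with a log2 difference of -1.91 ± 0.23 (SE, edgeR adjusted p = 0.000367). The member itself, circ_0012990, had 13 and 19, then 9 and 10, then 0 and 8 reads. The other circRNAs of Glis3 summed to 247 and 207, then 296 and 315, then 180 and 204, and differed on D8 by -0.84 ± 0.23 from D0 (edgeR adjusted p = 0.0341) and by -0.94 ± 0.23 from D4 (adjusted p = 0.0445). The Glis3 member had no D8 reads, while the gene's other circRNAs were still read in both D8 libraries.

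Mcph1 had 53 and 88, then 71 and 89, then 49 and 34 reads of other circRNAs (log2 -1.33 ± 0.36 from D0, edgeR adjusted p = 0.0341). Zswim6 had 48 and 35, then 51 and 53, then 23 and 23 (-1.45 ± 0.39, adjusted p = 0.0342), and the single other circRNA of Prrc1 had 24 and 24, then 7 and 7, then 5 and 4 (-2.96 ± 0.70, edgeR adjusted p = 0.0228). Other circRNAs of Eefsec, the elongation factor for selenocysteine, had 27 and 59, then 115 and 127, then 50 and 35 reads, and were lower on D8 than on D4 (-1.77 ± 0.37, edgeR adjusted p = 0.0322). For Prrc1 the step was between D0 and D4, and for Eefsec D4 stood above both other stages.

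The 2 hosts with higher values on D8 than on D0 were Osmr, the oncostatin M receptor, and Sdk1. The single other circRNA of Osmr had 23 and 16 reads at D0, 55 and 70 at D4, and 71 and 105 at D8 (log2 1.56 ± 0.38, edgeR adjusted p = 0.0243), while the member had 2, 8, 6, 3, 4 and 0 reads in the 6 libraries. Those of Sdk1 had 4 and 4, then 61 and 50, then 31 and 44 (2.60 ± 0.53, edgeR adjusted p = 0.0104), and the Sdk1 member had 36 reads in D8 replicate 2 and 0 in replicate 1. Leaving out a library changed these calls. Without D8 replicate 1, 0 of the hosts passed against D0, and without replicate 2 only Cacna1c did (edgeR adjusted p = 0.0374), when 10 and 12 of all genes passed in place of 112. In these fits the lone D8 library is assumed to vary like the other stages, and no direction changed. The log2 differences without replicate 1 and without replicate 2 were -1.83 and -1.92 for Cacna1c, -3.19 and -2.69 for Prrc1, 2.77 and 2.46 for Sdk1, 1.76 and 1.39 for Osmr, -1.69 and -0.97 for Mcph1, -1.51 and -1.32 for Zswim6 and -0.81 and -0.80 for Glis3. Leaving out a D0 or D4 library also changed which hosts were called. Without D0 replicate 1 and without D0 replicate 2, the log2 differences from D0 were -2.02 and -1.71 for Cacna1c, -2.87 and -2.98 for Prrc1, 2.69 and 2.58 for Sdk1 and 1.95 and 1.31 for Osmr. They were -1.57 and -0.95 for Mcph1, -1.1 and -1.67 for Zswim6 and -0.61 and -0.98 for Glis3. Zswim6 and Glis3 lost the call without D0 replicate 1, and Osmr and Mcph1 without D0 replicate 2. Without either D4 library, Mcph1, Zswim6 and Glis3 lost it. The calls against D4 were lost when any D4 or D8 library was left out. In those 4 fits the log2 difference of D8 from D4 was -2.14 to -1.47 for Eefsec and -1.01 to -0.90 for Glis3, in the same direction as with all libraries.

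**Figure D5:**
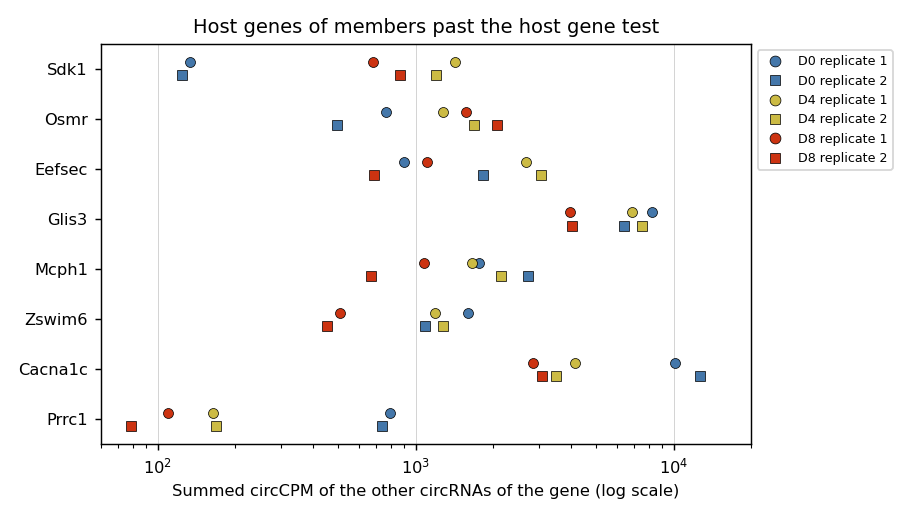
Summed circCPM of the other circRNAs (horizontal, log scale) of the 8 host genes that passed the host gene test in D8 against D0 or D8 against D4, in each of the 6 libraries. Circles are replicate 1, squares replicate 2, and members are left out of the sums. The D8 points lie below both D0 points for Glis3, Mcph1, Zswim6, Cacna1c and Prrc1 and above both for Osmr and Sdk1.

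In gene structure the members were as follows. Of the 243, 233 (95.9%) had both ends within annotated exons of the host gene and are called exonic. The other 10 had at least 1 end outside these exons and are called intronic, which does not show that they consist of intron. Both ends lay exactly at exon ends in 223 members (91.8%), as in 91.8% of all circRNAs. The median genomic span was 7999 bases (quartiles 3052 and 17437), against 7045 for circRNAs of all 3 stages, 5618 for those of D0 and D8, 9416 for those of D4 and D8 and 7492 for all. Spans under 1 kb made up 8.64% of members, 11.8% of circRNAs of all 3 stages, 17.9% of those of D0 and D8 and 7.52% of those of D4 and D8. The intron upstream of the circle had a median of 13403 bases for members and 13798, 8352 and 10724 bases for these 3 sets in the same order. The shortest was circ_0006601 of Pkd1, the 214 bases of exon 19 (chr17:24715041-24715254, plus strand). The longest spanned 139373 bases and was assigned to Eif4e3 (chr6:99210339-99349711, minus strand). No exons could be assigned to this circRNA, whose host was picked among annotated genes that span both of its ends. The 221 members that could be spliced in silico held a median of 3 exons and 469 bases (quartiles 355 and 663), against 442 bases for circRNAs of all 3 stages. The commonest exon numbers were 3 (55 members), 2 (53) and 4 (40), and 14 (6.33%) were a single exon.

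The first exon of the circle was exon 2 of the matched transcript, which can be a partial model, in 99 of these 221 members (44.8%, exact interval 38.1 to 51.6%). The share was 45.2% of circRNAs of all 3 stages, 30.3% of those of D0 and D8, 35.7% of those of D4 and D8 and 37.5% of all circRNAs. CircBase listed 186 members (76.5%, interval 70.7 to 81.7%), 85.4% of circRNAs of all 3 stages, 65.0% of those of D0 and D8 and 64.6% of those of D4 and D8. Among the 967 circRNAs of all 3 stages whose D0 and D4 reads lay within the members' range, the share was 84.9%. Their median of 51 reads was above the 27 of the members, so this range did not match the level. Between the members' quartiles, a narrower match chosen after seeing the data, the median was 31 reads and the circBase share 78.1%. Chromosome 2 gave the most members, 24 of its 99 circRNAs detected on D0 and D4 (24.2%), and chromosome X the fewest, 3 of 19 (15.8%). As a share, chromosomes 17 (28.6%) and 13 (28.3%) were highest and chromosome 15 (11.4%) lowest.

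Flanking sequence was compared over 1000 bases on either side of the circle, since pairing between flanking introns and binding of the protein Quaking are known to promote back-splicing. Local alignment of the upstream flank to the reverse complement of the downstream flank scored 20 or more for 33 members (13.6%), 12.7% of circRNAs of all 3 stages and 13.7% of all circRNAs, on a scale where a match adds 1. For Bub1b circ_0001058 the score was 52, and for Samd4 circ_0000529 it was 9. The Quaking letters ACTAAC, written as DNA on the RNA strand, were in the flanks of 68 members (28.0%, interval 22.4 to 34.1%), 26.6% of circRNAs of all 3 stages and 25.1% of all. On the opposite strand, where the letters cannot be in the transcript, the shares were 42.0%, 38.2% and 38.5%. The variant ACTAAT was on the RNA strand of 30.0%, 33.1% and 31.4%. A match is a description of these letters and not a binding site.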

How the data were processed

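Back-splice reads were counted in 6 libraries, 2 for each of D0, D4 and D8. The authors trimmed reads with fastp 0.20.1, aligned them to mm9 with BWA-MEM 0.7.17, called circRNAs with CIRI2 and deposited raw counts of back-splice reads. They kept a circRNA where both replicates of at least 1 stage had 2 reads or more. The replicates are called biological, and no source used here says from which animals they came.

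The members, lists and named circRNAs were chosen with earlier results of these data known. The named circRNAs were the 12 highest members on D0 and D4, the 10 highest without D8 reads, the 6 highest in a single D8 library, members past the test, hosts of 3 or more members, up to 4 members per list and hosts past the host gene test. Sdk1 was named under the adhesion list. Some circRNAs under this rule are not reported here. Fbn1, Tgfbr1, Pdpk1, Pkd1 and Eif4e3 were named outside this rule, after their values were seen.

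Counts were fitted with edgeR 4.0.16 in R 4.3.3 (quasi-likelihood, TMM, filterByExpr with a minimum count of 10, all 6 libraries, Benjamini-Hochberg adjustment at 0.05). Tested on simulated data, this missed moderate changes of single circRNAs and most moderate changes of host genes, and made more false calls among host genes than the nominal rate where changes were large, so a count of 0 does not show that levels were unchanged. DESeq2 1.42.0, other scalings and filters, a replicate block, other read minimums and each library left out in turn were alternatives. Exons follow the GENCODE annotation of Ensembl release 65. Exon numbers are those of the matching transcript with the most exons in the circle. This can be a partial model, so numbers may differ between circRNAs of a gene and from its full transcript. Of the 222 host symbols, 207 were current RefSeq symbols and 14 older ones.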

Additional observations from a re-analysis of the deposited data

How the results depend on the processing

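The number of members depended on the detection rule. It was 243 at 2 reads in both libraries and 135 at 5 reads, of which 86 were shared, and the D8 split was then 23 in neither library, 59 in replicate 1 only and 53 in replicate 2 only. Leaving out 1 library gave 139 to 391. With 2 reads in either library of a stage the number was 234, but only 48 of these were members under the main rule. Per 100 reads of circRNAs detected at all 3 stages, a set that holds no member, the members had 10.6 reads on D0, 8.32 on D4 and 3.48 on D8. Among members without D8 reads alone, circBase held 66.7%, ACTAAC was in the flanks of 20.8% and the median span was 10402 bases. Among circRNAs of all 3 stages with reads between the members' quartiles, a setting chosen after seeing the data, circBase held 78.1%.

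Members called between D4 and D0 numbered 2 with the D0 and D4 libraries alone, where 84 of all circRNAs were called. They numbered 0 under every other setting run with all 6 libraries, where 21 to 71 of all circRNAs were called. The circRNAs of Samd4 and Sdk1 were called when a D8 library was left out, as given above. Leaving out a D0 or D4 library leaves a single library for that stage, so no count is given. Hosts called on D8 against D0 were 3 with no filter and 0 to 10 when 1 library was left out. Hosts called on D8 against D4 were 1 with column totals, 0 with no filter, 7 with a mean of 20 or more counts, 9 with DESeq2 and 0 to 11 when 1 library was left out. Calls over all genes moved too. For D8 against D4 they were 26 with column totals and 8 with no filter. They were 44 with a mean of 20 or more counts and 54 with DESeq2, against 30 in the main fit. For D8 against D0 they were 53 with no filter, against 112 in the main fit. Calls over all genes also changed when 1 library was left out, so the host counts alone do not describe the hosts. The cause was not tested. Over the named hosts, 69 of 107 alternative fits kept the call, 38 lost it and 0 reversed, and the highest adjusted p ranged from 0.054 (Cacna1c) to 0.472 (Glis3 against D4).

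Replicate numbers are shared across stages, but same-numbered libraries correlated by only 0.0348 to 0.0702 in their deviations from the stage means, so the numbers were not taken as a pairing. With a replicate block, 0 members differed between D4 and D0, where 21 of all circRNAs did. In that design 7 hosts differed between D8 and D0, where 107 of all genes did, and 5 between D8 and D4, where 32 did.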
